A study of Mus musculus with 12 samples.

Results

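Cbx6 and 8 related genes of chromatin silencing were followed across 12 arrays of murine acute myeloid leukaemia cell lines. The set held the chromobox genes Cbx1, Cbx2, Cbx3, Cbx5, Cbx6, Cbx7 and Cbx8 with the Polycomb core genes Bmi1 and Ezh2, and was chosen by function and by the known differences in array signal between these lines, above all that of Cbx6. Of the 9 genes, 8 had 20 single-gene probe sets, out of 28898 on the array, and for Cbx8 no array values were analysed here. Each of these 8 genes was represented among the 11223 genes tested by at least 1 probe set that exceeded its array's median on 4 or more arrays, as 15 of the 20 probe sets did. The other 5 were dim probe sets of Cbx1, Cbx2, Cbx5 and Cbx7.

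The arrays measured total RNA from 3 lines, 4 arrays each, and the question named by the series is whether Bcl11a promotes leukaemia by opposing the transcription factor PU.1. The line called Trib1 expressed Trib1, a pseudokinase known to drive loss of the transcription factor C/EBPalpha. By their labels, TB13 and TB14 expressed Bcl11a, a repressor with zinc fingers, in addition to Trib1, so that all groups carried Trib1. All were grown with 5 ng/ml interleukin-3 and received no treatment. There was 1 line without Bcl11a, and nothing in the labels says that the 4 arrays of a line came from separate cultures. The p-values below therefore measure spread among arrays only, and that spread may be technical. The sources used here do not give how the genes were introduced or whether a line was a clone. The arrays did not bear out the labels through the introduced genes themselves. The brightest of 4 Bcl11a probe sets had means of 17.7 in Trib1, 15.5 in TB13 and 13.8 in TB14, and none of the 4 passed the filter on low values. The brighter of 2 Trib1 probe sets had means of 25.2, 34 and 27.4. Where in the transcripts these probe sets lie was not analysed here, so whether they cover an introduced coding sequence was not tested, and TB13 and TB14 are named throughout as their labels name them.

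Chromobox proteins carry a chromodomain, which binds methylated histone tails. CBX1, CBX3 and CBX5 are the HP1 proteins, which bind methylated lysine 9 of histone H3 in heterochromatin. CBX2, CBX6, CBX7 and CBX8 are alternative subunits of Polycomb repressive complex 1 (PRC1) that recognise methylated lysine 27, the mark written by EZH2 in PRC2. BMI1 is a PRC1 subunit known for silencing the Cdkn2a locus and for the self-renewal of blood stem cells and leukaemia cells.

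In scale, the arrays of TB13 differed from the 8 others. Their upper quartiles were 71.8 to 72.5 intensity units against 102.2 to 108.9, while their medians were higher, at 25.5 to 25.9 against 20.8 to 21.4. The 18 hybridization controls, which do not come from the cells, had a median log2 difference of -0.93 in TB13 against Trib1 and 0.0010 in TB14. Over the genes tested the median log2 difference between TB13 and Trib1 was -0.39 as deposited, 0.026 after quantile scaling and 0.51 after calibration on those controls. For TB14 against Trib1 it was -0.0024 as deposited and -0.0051 after quantile scaling. Log2 differences for TB13 are therefore given on the deposited and on the quantile scale, and levels as deposited. Calibration moved dim probe sets further. Those of Cbx1, Cbx2, Cbx5 and Cbx7 that failed the filter gave 0.0033 to 0.29 in TB13 against Trib1 as deposited. After calibration they gave 1.21 to 1.49, and the calibrated TB13 values of dim genes below are to be read beside these. All 12 myeloid markers exceeded the array median on every array. Of 9 stromal and endothelial markers Pecam1, Pdgfrb and Kdr exceeded it on all arrays, with a Pecam1 mean of 770.6 in Trib1, Dcn on 4 and Col1a1, Col1a2, Col3a1, Lum and Cdh5 on none. Of 8 measured lymphoid markers only Cd3e and Cd79a exceeded it on all arrays.

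Cbx6 read higher in both Bcl11a lines than in Trib1. Its single probe set, 1424407_PM_s_at, whose suffix marks probes that match several transcripts, read 21, 18.7, 21.8 and 26.2 on the Trib1 arrays. On the TB13 arrays it read 76.8, 81.1, 76.8 and 81.5, and on the TB14 arrays 162.9, 137.1, 149.8 and 158.2. The 3 lines did not overlap, with Trib1 lowest and TB14 highest as deposited. The means were 21.9 ± 3.11, 79.0 ± 2.57 and 152.0 ± 11.4 (SD, n = 4) in the order Trib1, TB13 and TB14. Only 2 of the 4 Trib1 values exceeded their array's median, so the Trib1 level lay at about the middle of all probe sets and the fold depends on the pseudocount of 12.7 added before taking logs.

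The log2 difference of Cbx6 was 2.25 ± 0.065 (SE) for TB14 against Trib1 and 1.41 ± 0.065 for TB13 against Trib1, and after quantile scaling 2.00 and 1.74. Both comparisons share the Trib1 arrays. In each of them the deposited difference ranked 16th from the top of 11223 genes. After quantile scaling Cbx6 ranked 18th in TB14 and 53rd in TB13. These values, having led to the choice of the gene, are a description without a test. TB14 exceeded TB13 by 0.84 as deposited and 0.25 after quantile scaling, with ranges apart in both. Calibration on the hybridization controls put TB14 below TB13 with a difference of -0.29. Over the genes tested the median difference between TB14 and TB13 was 0.41, -0.0087 and -0.51 in the same order of scales. The order Trib1, TB13, TB14 without overlap was shared by 142 genes (1.27%) as deposited and by 249 (2.22%) after quantile scaling. Of the set, Cbx6 alone was in this order as deposited, and Cbx3, Cbx1 and Cbx6 were after quantile scaling. The summed level of the erythroid and megakaryocyte markers was also higher in both Bcl11a lines, with 1821 to 1860 for Trib1, 2339 to 2497 for TB13 and 2359 to 2398 for TB14. Haemoglobin gene Hba-a1 was the largest part of it in each line, and most of it in TB13 and TB14, with means of 856.8, 1519 and 1459 in Trib1, TB13 and TB14. In the same order, Itga2b had 688.5, 501.2 and 492.5, Epor 70, 120.5 and 67.99 and Pf4 187.1, 197 and 323.3. Of the 6 measured genes, 4 exceeded the array median on every array and Klf1 on none, and their part in the Cbx6 values was not tested. The lymphoid markers summed to 264.5 to 273.1 in Trib1, 334.7 to 389.9 in TB13 and 202.7 to 211.8 in TB14. Single genes weighed heavily in these sums, with Cd3g means of 69.0, 14.6 and 13.9 and Cd3e means of 65.9, 152.5 and 62.8. The stromal and endothelial markers summed to 931.5 to 979.9, 447.8 to 510.9 and 736.1 to 776.1 in Trib1, TB13 and TB14. The myeloid markers summed to 7368 to 7519 in Trib1, 5368 to 5471 in TB13 and 9221 to 9298 in TB14. Of the 12, 5 were called higher and 6 lower in TB14 than in Trib1 by limma, against 27% and 21.5% of all genes. Elane had means of 55.6, 108.6 and 435.9 in Trib1, TB13 and TB14, whereas Csf1r had 156.1, 61.9 and 56.0. In bulk RNA, more cells of a type and more RNA per cell cannot be told apart.

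**Figure D1:**
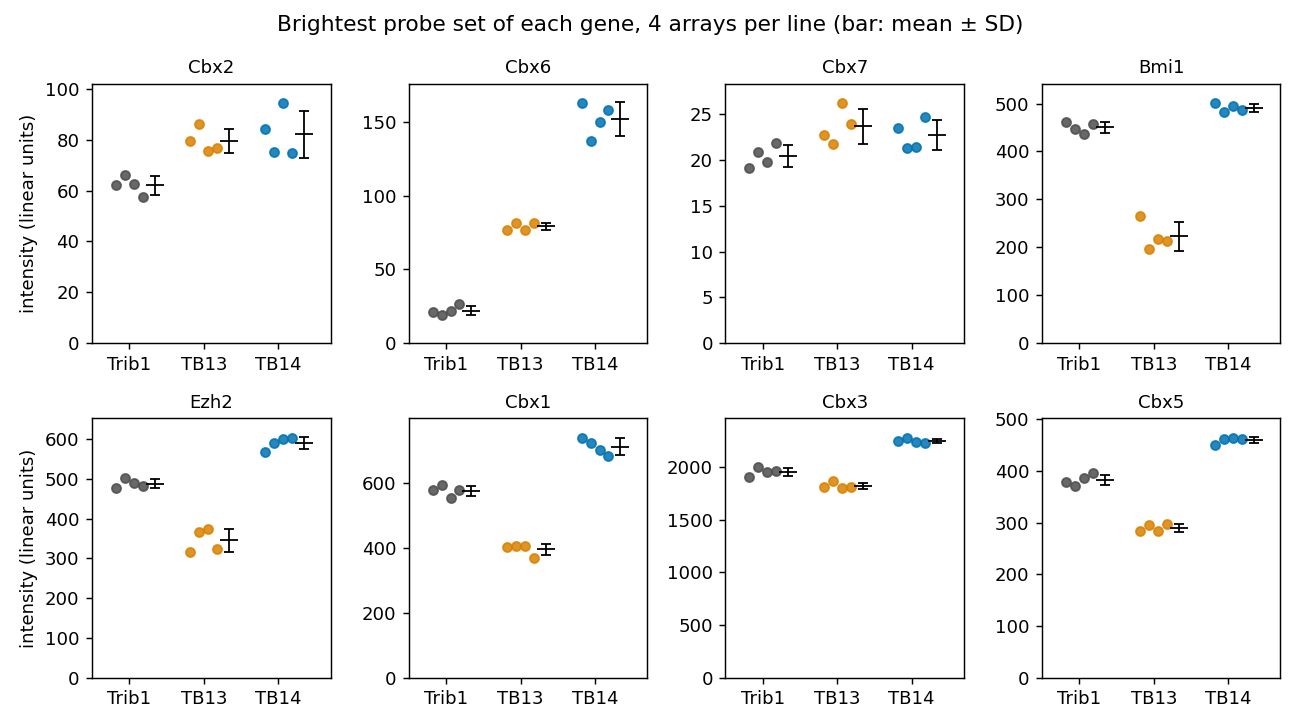
Intensity in linear units (vertical axes, from 0) of the brightest probe set of each of the 8 measured genes, with 1 point per array for the lines Trib1, TB13 and TB14 and a bar for the mean ± SD of 4 arrays. As deposited, Cbx6 is the gene whose 3 lines lie apart in the order Trib1, TB13 and TB14. Its means go from 21.9 to 79.0 and 152.0, while Bmi1, Ezh2, Cbx1, Cbx3 and Cbx5 have their lowest deposited values in TB13.

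A probe set outside the single-gene rule bears on the same locus. Besides the Cbx6 probe set, 4 others are annotated to Npcd, Cbx6 and Nptxr together and cannot be assigned to any of them. These genes follow each other in RefSeq gene order, and whether they overlap was not analysed here. The brightest of the 4 probe sets, 1429290_PM_at, read 55.8 ± 2.75 for Trib1, 142.3 ± 7.69 for TB13 and 227.2 ± 8.67 for TB14 (SD, n = 4), log2 differences of 1.18 and 1.81 from Trib1. Its ranges were apart in the same order as those of Cbx6, although after quantile scaling TB14 stood 0.14 below TB13. A second, 1450147_PM_at, read 24.3 ± 1.73, 52.6 ± 4.22 and 23.6 ± 1.10, so it was higher in TB13 alone. The remaining 2 had means of 22.0, 23.4 and 21.5 and of 12.1, 19.0 and 11.9, so that 1 of the 4 read higher in TB14 than in Trib1.

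The measured genes next to Cbx6 gave other values. In RefSeq gene order on chromosome 15, D730005E14Rik and Apobec3 lie between Cbx6 and Cbx7. Apobec3, a cytidine deaminase that restricts retroviruses, had a mean of 492.5 ± 26.5 for Trib1, 340.5 ± 10.9 for TB13 and 576.1 ± 17.1 for TB14 (SD, n = 4). Its log2 difference was 0.22 in TB14, and in TB13 -0.52 as deposited against 0.18 after quantile scaling. D730005E14Rik, a long noncoding RNA, had means of 23.9 ± 1.58, 31.3 ± 4.76 and 24.7 ± 1.24, and in TB13 a difference of 0.26, or 0.10 with quantile scaling. Pdgfb, beyond Cbx7, stayed dim with means of 14.4, 21.7 and 15.0. Upstream sequences of Cbx6 and of Cbx7, the member next to it, are printed because these neighbouring paralogues gave different values. They are the 250 bases before the RefSeq start on the minus strand of build GRCm38.p6, at chr15:79834334-79834583 for Cbx6 and chr15:79932647-79932896 for Cbx7, with capitals for TGACCA, a motif known for BCL11A, on either strand.
Cbx6: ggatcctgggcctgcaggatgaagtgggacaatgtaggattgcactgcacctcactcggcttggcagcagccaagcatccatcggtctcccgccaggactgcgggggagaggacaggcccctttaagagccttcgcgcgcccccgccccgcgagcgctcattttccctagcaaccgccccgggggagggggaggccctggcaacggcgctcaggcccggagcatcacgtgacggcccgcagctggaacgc
Cbx7: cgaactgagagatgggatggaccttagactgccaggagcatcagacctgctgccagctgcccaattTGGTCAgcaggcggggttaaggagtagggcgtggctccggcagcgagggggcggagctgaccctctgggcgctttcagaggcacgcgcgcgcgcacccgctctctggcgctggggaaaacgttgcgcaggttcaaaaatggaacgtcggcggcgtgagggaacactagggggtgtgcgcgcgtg

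The windows were searched for the letters of known binding motifs. RefSeq start windows were found for each gene of the set but Cbx2, 10 in all. TGACCA stood in those of Cbx7 and Cbx3 and in 11.4% of 32851 promoters, and GAGGAA, the core of PU.1 sites, in those of Ezh2 and Cbx8 and in 23.3%. The longer GAGGAAGT, which contains it, was in none of the 10 and in 2.44% of all. Of the E2F motifs TTTCCCGC (0.895% of promoters) and TTTGGCGC (0.417%), the second stood in 1 window of Cbx3. The Cbx6 window held none of these 5 motifs and 20 CpG dinucleotides, against a median of 6 over all promoters, and the Cbx7 window held 23. Both strands were searched, and a match or its lack describes these letters only.

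**Figure D2:**
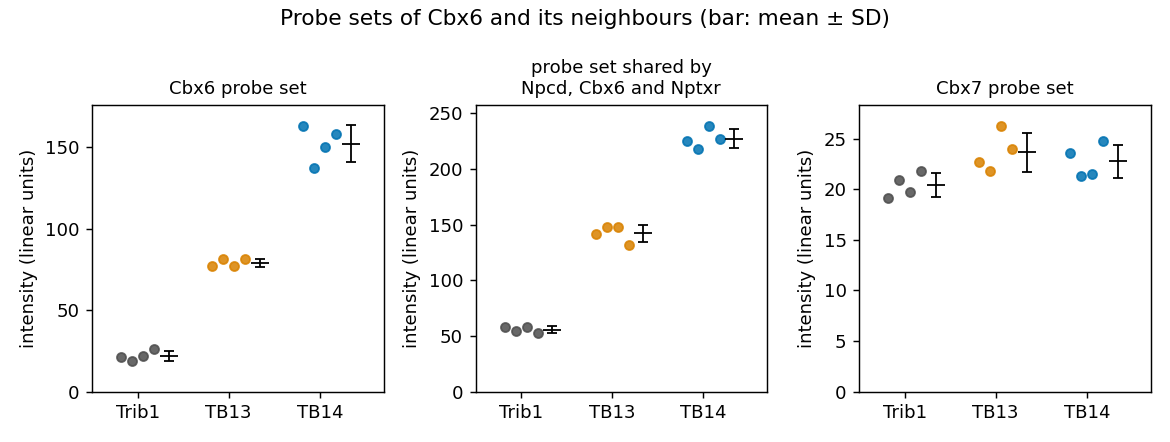
Intensity in linear units (vertical axes, from 0) on each array of the Cbx6 probe set, of the brightest probe set annotated to Npcd, Cbx6 and Nptxr together and of the brightest Cbx7 probe set, with bars for the mean ± SD of 4 arrays. The first and second are lowest in Trib1 and highest in TB14, with TB14 means of 152.0 and 227.2, whereas the Cbx7 probe set stays between 19.2 and 26.3.

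The other measured Polycomb chromobox genes differed less in TB14. Cbx2 encodes a PRC1 subunit that compacts chromatin. Its brighter probe set read 62.2, 66.2, 62.6 and 57.3 in Trib1, 79.7, 86.3, 75.7 and 76.9 in TB13 and 84.2, 75.3, 94.6 and 74.7 in TB14. Both Bcl11a lines lay above Trib1 and overlapped each other. The log2 difference was 0.34 ± 0.066 (SE) in TB14 and 0.30 ± 0.066 in TB13 as deposited, and 0.27 and 0.74 after quantile scaling. In TB13 it was 0.078 after median scaling and 1.42 after calibration, where Cbx6 had 2.52. The other Cbx2 probe set stayed below the array median on every array and gave 1.40 in TB13 after calibration.

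Cbx7, the chromobox subunit linked to self-renewal of stem cells, read near or below the array median in every line. Its brightest probe set ranged from 19.2 to 21.8 in Trib1, 21.8 to 26.3 in TB13 and 21.3 to 24.7 in TB14, and the other 2 exceeded the median on no array. The log2 differences from Trib1 were 0.098 ± 0.049 (SE) in TB14 and 0.13 ± 0.049 in TB13, the latter -0.039 after quantile scaling and 1.34 after calibration. The other 2 probe sets gave 1.31 and 1.25 in TB13 after calibration. The ranges of the 3 lines overlapped.

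Bmi1 read lower in TB13 than in the other lines. Its brighter probe set read 461.9, 446.8, 436.9 and 456.4 in Trib1, 266.1, 197.2, 216.7 and 211.9 in TB13 and 501.6, 483.1, 495.0 and 485.7 in TB14. As deposited, every TB13 value lay below the Trib1 range and every TB14 value above it. After quantile scaling the TB13 and Trib1 ranges of this probe set overlapped. The log2 difference was -0.98 ± 0.059 (SE) in TB13 as deposited, -0.23 after quantile scaling and -0.068 after calibration on the controls, and 0.12 ± 0.059 in TB14. The second Bmi1 probe set had means of 216.0 ± 4.29, 105.7 ± 10.4 and 238.2 ± 4.52 (SD, n = 4) in Trib1, TB13 and TB14. Its difference in TB13 was -0.95 as deposited and -0.26 after quantile scaling, but 0.12 after calibration. The size of the lower Bmi1 value in TB13 thus depended on the scaling, as did its direction for 1 of the 2 probe sets.

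Ezh2, the methyltransferase of PRC2, gave opposite directions in TB13 depending on the scaling. Its single probe set read 477.2, 503.2, 489.4 and 481.6 in Trib1, 316.9, 366.8, 374.9 and 324.2 in TB13 and 569.0, 590.8, 600.2 and 604.1 in TB14. No deposited ranges overlapped, with TB14 highest. The log2 difference was 0.27 ± 0.045 (SE) in TB14, and in TB13 -0.49 as deposited against 0.20 after quantile scaling. Proliferation genes were mostly higher in TB14 too: of 17 measured, 15 rose and 1 fell in TB14 (limma with Benjamini-Hochberg adjustment), where 27% of 11223 genes were called higher and 21.5% lower. Mcm3, Mcm2 and Cdk1, which serve DNA replication and entry into mitosis, rose in TB14 with log2 differences of 0.61, 0.49 and 0.41. The summed level of the list was 16650 to 16870 in Trib1, 12820 to 12910 in TB13 and 19650 to 19660 in TB14. In TB13 none of the 17 rose and 17 fell as deposited, against 29% and 63.6% of all genes. After quantile scaling 7 rose and 7 fell, against 42% and 38.3%. The list's part in the Ezh2 values was not tested.

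The HP1 genes read slightly higher in TB14. Cbx1, HP1 beta, read 578.4, 592.1, 554.3 and 579.2 in Trib1, 402.8, 405.4, 404.2 and 367.8 in TB13 and 739.6, 723.6, 701.1 and 681.6 in TB14. These ranges did not overlap, and the log2 difference was 0.30 ± 0.036 (SE) in TB14 and -0.53 ± 0.036 in TB13, the latter 0.12 after quantile scaling. A dimmer probe set of Cbx1 gave 0.24 in TB14, and in TB13 -0.12 as deposited and -0.25 after quantile scaling. Another, at 23.7 in Trib1, gave 0.018 in TB14, and in TB13 0.27 as deposited and 0.11 after quantile scaling.

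Cbx3, HP1 gamma, which is also found on transcribed genes, had 2 probe sets. The first had means of 1953 ± 40.5 for Trib1, 1823 ± 28.9 for TB13 and 2248 ± 22.4 for TB14, and the second of 1928 ± 31.4, 1938 ± 37.2 and 2110 ± 30.9 (SD, n = 4). The log2 differences in TB14 were 0.20 ± 0.018 and 0.13 ± 0.019 (SE), with every TB14 array above every Trib1 array. In TB13 they were -0.099 and 0.0067 as deposited and 0.098 and 0.19 after quantile scaling.

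Cbx5, HP1 alpha, had 5 probe sets, of which 4 were tested. The brightest ranged from 371.4 to 394.8 in Trib1, 283.1 to 297.8 in TB13 and 450.2 to 464.2 in TB14, a log2 difference of 0.26 ± 0.033 (SE) in TB14. The other tested probe sets gave 0.23, 0.23 and 0.086 in TB14, the last with overlapping ranges. In TB13 the 4 probe sets disagreed, with deposited differences from -0.67 to 0.036 and, after quantile scaling, from -0.47 to 0.74.

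**Figure D3:**
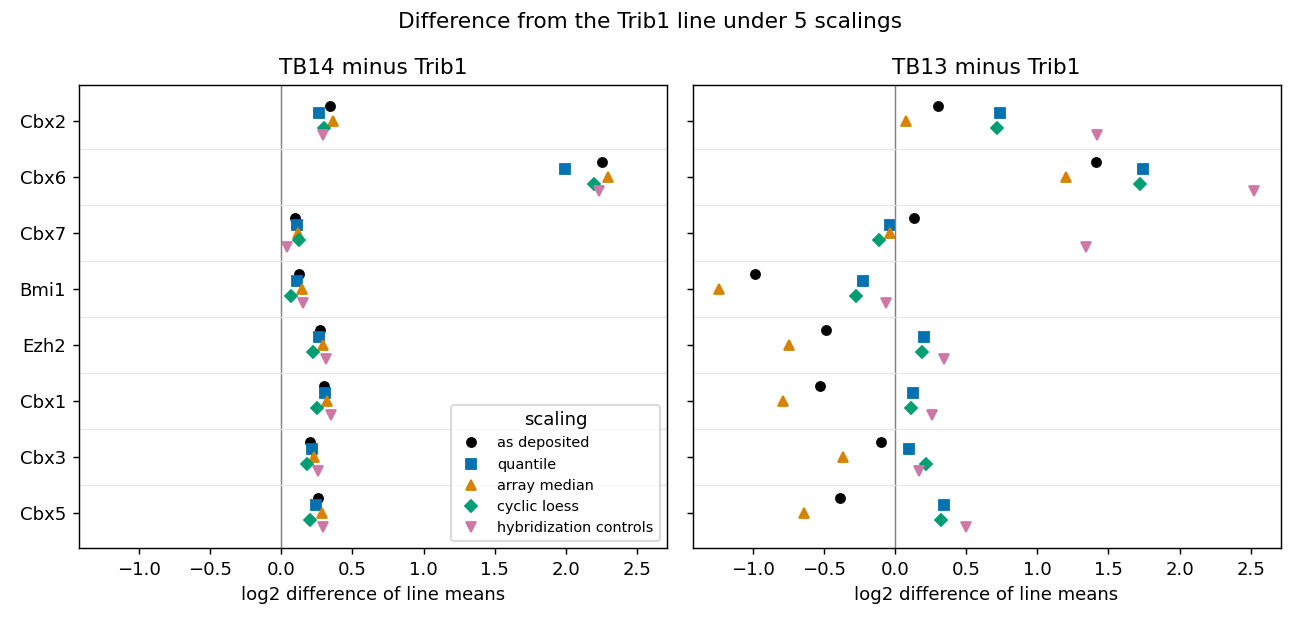
Log2 difference of line means (horizontal axes) for the brightest probe set of each gene, TB14 minus Trib1 on the left and TB13 minus Trib1 on the right, with 1 marker for each of 5 scalings. In TB14 the markers of a gene lie close together and all are above 0, whereas in TB13 Cbx6 and Cbx2 lie above 0 under all 5, Bmi1 below 0 under all 5 and the rest on both sides.

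Counted by their brightest probe set, 6 of the 8 measured genes were called higher in TB14 than in Trib1 and none lower, against 27% and 21.5% of all genes, the call being an adjusted p under 0.05 in limma. After quantile scaling the count was the same, against 22.9% and 20.9%, and after calibration it was 7 and none, against 24.2% and 20.4%. The ranges of 7 lay above those of Trib1 and none below, as did 30.9% and 25.5% of all genes. Cbx7 and Bmi1 were the uncalled genes, and the dimmer Bmi1 probe set was called higher. In TB13 the count was 3 higher and 5 lower as deposited, against 29% and 63.6% of all genes, and 6 higher and 1 lower after quantile scaling, against 42% and 38.3%. Calibration gave 7 higher and none lower in TB13 (73.2% and 11.9% of all genes), and deposited ranges lay above Trib1 for 2 and below for 5 (26.7% and 61.6%). Between TB14 and TB13 it was 6 higher and none lower as deposited (63.4% and 29.3% of all genes) and 5 higher and 2 lower after quantile scaling (39% and 41.1%). Calibration gave 2 higher and 4 lower there (13.6% and 70.6%), and deposited ranges lay higher for 6 and lower for none (61.7% and 27.3%). The median log2 difference of the 8 genes in TB14 was 0.26, beside -0.0024 for all genes, and in TB13 it was -0.24 beside -0.39. Since the genes were chosen with these comparisons in view, the counts are given as a description.

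The other genes of the Polycomb system were taken from lists by function. Of 47 listed genes 38 were tested, and 11 rose and 7 fell in TB14 against Trib1 (limma with Benjamini-Hochberg adjustment), with a median log2 difference of 0.0029. The shares over all genes were 27% and 21.5%, and the counts of the lists below in TB14 are to be read against them. By the brightest probe set of each gene, only Mtf2 passed with a change of 1.5-fold or more. Dimmer probe sets of Men1 and Ezh1 also did, with 0.64 and 0.60 (limma adjusted p = 1.56e-07 and 2.36e-06). Among 17 tested PRC1 subunits 5 rose and 3 fell. Pcgf5 and L3mbtl2, subunits of variant PRC1 complexes, rose by 0.49 ± 0.059 and 0.48 ± 0.060 (SE; adjusted p = 7.55e-07 and 1.5e-06). Rnf2, the main ubiquitin ligase of PRC1, had a mean of 415.0 in Trib1 and 525.4 in TB14 and rose by 0.33 (adjusted p = 1.18e-07). Its paralogue Ring1 fell with a log2 difference of -0.15 (limma adjusted p = 0.0465), a call that ended after quantile scaling (adjusted p = 0.164).

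The PRC2 list, of subunits with the inhibitor gene Ezhip, gave 4 rises and 1 fall in TB14 among 10 tested. Mtf2, a Polycomb-like protein that recruits PRC2 to CpG islands, went from a mean of 419.8 in Trib1 to 646.3 in TB14, a log2 difference of 0.61 ± 0.036 (SE; limma adjusted p = 3.06e-11). Its 3 other tested probe sets gave 0.36 to 0.65. Suz12, a core subunit, and Rbbp7, a histone-binding subunit, rose by 0.30 and 0.27 (adjusted p = 4.65e-07 and 6.96e-11). Eed, the core subunit that reads the methyl mark, had a log2 difference of -0.047 and did not pass (adjusted p = 0.231), nor did Ezh1, the second methyltransferase, with -0.11 (adjusted p = 0.206). Enzymes that oppose Polycomb gave 2 rises and 3 falls of 11. Men1, a Trithorax-complex subunit, and Bap1, the deubiquitinase of histone H2A, rose by 0.50 and 0.35, and the methyltransferase gene Kmt2d had a log2 difference of -0.21 (adjusted p = 2.38e-08, 1.87e-06 and 0.000392).

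**Figure D4:**
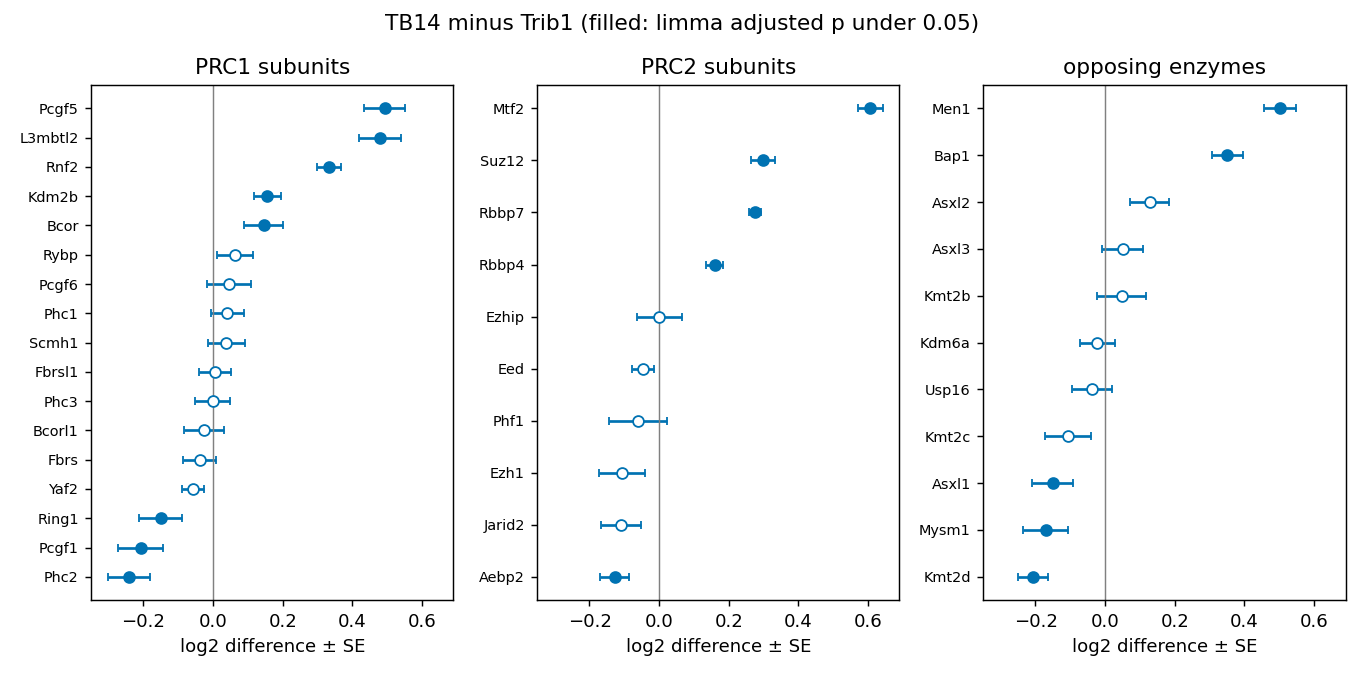
Log2 difference between TB14 and Trib1 (horizontal axes, ± SE from the fit) for the 38 tested genes of the Polycomb system that are not in the set, by list, with filled points for limma adjusted p under 0.05. Mtf2 at 0.61 and Men1 at 0.50 lie farthest to the right in their lists, and the open points lie within 0.13 of 0.

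In TB13 the same 38 genes gave 5 rises and 30 falls as deposited, against 29% and 63.6% of all genes. The 5 rises were of dim genes, Scmh1, Bcorl1, Fbrsl1, Asxl3 and Ezhip, with means of 19.8 to 26.1 in Trib1. Bcorl1 passed the filter only through the TB13 arrays, where it was highest. The 38 genes gave 12 rises and 16 falls after quantile scaling (42% and 38.3% of all genes), and 28 and 4 after calibration on the controls (73.2% and 11.9%). Their median log2 difference was -0.60 as deposited, beside -0.39 for all genes, and 0.00075 after quantile scaling, beside 0.026. Between TB14 and TB13 the counts were 30 higher and 5 lower as deposited, the 5 being the same dim genes, against 63.4% and 29.3% of all genes. They were 20 and 8 after quantile scaling (39% and 41.1% of all genes) and 7 and 22 after calibration (13.6% and 70.6%). Rnf2 had a mean of 332.8 in TB13 and a difference of -0.31 from Trib1 as deposited against 0.40 after quantile scaling. Eed, at a mean of 360.0, gave -0.86 and -0.18. Suz12 gave -0.36 and 0.29, Mtf2 -0.32 and 0.39 and Ring1 -0.42 and -0.36. Rbbp4, a histone-binding subunit of PRC2 and other complexes, was the gene among the 38 that was called up in TB14 and down in TB13 under the deposited and the quantile scale alike. Its difference was 0.16 in TB14, and in TB13 it was -0.46 and -0.065, but 0.060 and not called after calibration.

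Of 20 listed loci that Polycomb is known to silence 10 were tested, and in TB14 2 rose and 2 fell, against 27% and 21.5% of all genes. Cdkn2a, the locus of the cell cycle inhibitors p16 and p19, fell in both lines, with means of 735.4, 61.2 and 246.0 in Trib1, TB13 and TB14. Its log2 differences were -3.35 in TB13 as deposited and -2.95 after quantile scaling, and -1.53 in TB14 (limma adjusted p = 3.04e-19, 3.64e-14 and 5.18e-14). Cdkn2b, the neighbouring inhibitor gene, had means of 86.5, 49.5 and 73.9 in Trib1, TB13 and TB14. It fell in TB13 by 0.68, or by 0.50 with quantile scaling, but read 0.49 higher after calibration, and did not pass in TB14, with -0.19 (adjusted p = 0.0785). Cdkn1a, the inhibitor p21, rose by 0.36 in TB14, where Hhex, a homeobox factor of progenitors, had a difference of -0.22 (adjusted p = 1.4e-08 and 8.94e-06). Hoxa5, Hoxa7 and Hoxa10 were too dim to be tested, and Hoxa9 gave -0.077 in TB14 and did not pass (limma adjusted p = 0.282), while in TB13 it rose by 0.53, or by 0.96 with quantile scaling. Meis1, a partner of HOX proteins, was called up in TB14 by 0.18 and down in TB13 by 0.39 (limma adjusted p = 0.0218 and 6.37e-06), and quantile scaling gave -0.54 in TB13. Calibration gave 0.82 in TB13, and in TB14 it ended the call (0.11, adjusted p = 0.24 in limma).

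Partners of HP1 and enzymes of heterochromatin gave 9 rises and 2 falls of 17 tested genes in TB14, against 27% and 21.5% of all genes. Dnmt3a, a de novo DNA methyltransferase often mutated in myeloid leukaemia, had a mean of 524.2 ± 8.76 for Trib1 and fell to 90.4 ± 6.50 for TB13 and 144.2 ± 4.42 for TB14 (SD, n = 4). Its log2 difference was -1.78 in TB14 and -2.38 in TB13, the latter -1.75 after quantile scaling and -1.36 after calibration (limma adjusted p = 8.91e-17, 6.8e-19, 4.62e-14 and 1.42e-25). Its 4 other probe sets fell in both lines as deposited, by 0.64 to 1.63 in TB14, and 1 of them gave 0.078 in TB13 after quantile scaling. Dnmt3b, its paralogue, rose in TB14 by 0.87, while in TB13 it gave -0.012 as deposited and 0.65 after quantile scaling. Uhrf1, which guides maintenance methylation, rose in TB14 by 0.47 (adjusted p = 3.87e-10). Suv39h2, which methylates lysine 9 of histone H3, rose by 0.42 in TB14 and fell by 1.07 in TB13, where quantile scaling gave -1.13 and calibration 0.13. A dimmer Suv39h2 probe set gave 0.21 in TB14 and -0.48 in TB13. Another gave 0.060 in TB14 but 0.33 in TB13, the latter 0.25 after quantile scaling.

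Genes whose values followed Cbx6 most closely were found by Pearson correlation of log2 values over the 12 arrays, which come from 3 lines. The 5 with the highest r were Ugt1a6a (0.996), Cd81 (0.995), Thy1 (0.995), Ugt1a9 (0.994) and Mpo (0.994), and 65 of 11222 genes had an r above 0.95. These are values of likeness over 3 groups of arrays. Cd81, a tetraspanin, went from a mean of 31.1 ± 2.57 for Trib1 to 104.6 ± 4.79 for TB13 and 212.3 ± 9.43 for TB14 (SD, n = 4). Mpo, myeloperoxidase of granulocyte precursors, went from 225.6 to 853.0 and 2296. Ugt1a6a and Ugt1a9, glucuronosyltransferases that share exons, cannot be counted as separate genes here.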

How the data were processed

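Biotin-labelled RNA, from 100 ng of total RNA per sample, was measured on 12 arrays. The intensity values were deposited by the authors as 1 table on a linear scale and were made with MAS5 per the submitters' processing notes; the sources used here do not give its version or scaling target. Platform annotation, updated through RefSeq, gave 1 gene to 28898 of 45141 probe sets, several to 551 and none to 15588, with 104 controls left out, and no symbol changed. Probe sets above their array's median on at least 4 arrays were kept (17475), and each gene was represented by its brightest one (11223 genes). Log2(intensity + 12.7), the pseudocount being the 25th percentile of all values, was fitted over all 12 arrays with limma 3.58.1 in R 4.3.3 with a variance trend. Calls were at a Benjamini-Hochberg adjusted p under 0.05 over all probe sets tested, and a fold change on this scale understates that of dim genes. The fit was tested on simulated data.

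The genes described and the gene lists were chosen with earlier results of these data known. In the Polycomb, silenced-locus, heterochromatin and proliferation lists, genes were named by rule. These were, per list, the 3 called genes with the largest difference between TB14 and Trib1, and a fixed set of Polycomb genes and loci. Genes called in opposite directions between the Bcl11a lines were also named, except those of the proliferation list. The neighbours of Cbx6 and the 5 genes most like it were named too. Trim28 and the cell type markers were named outside these rules. Hoxa5, Hoxa7, Hoxa9 and Hoxa10 were named after their values were seen. Alternatives were quantile, median and cyclic loess scaling, other filters, pseudocounts of 1 and 50, a replicate block, other gene summaries, pairwise fits and leaving out each array. Calibration on the 18 hybridization controls was added after seeing the data. Within a line arrays correlated at 0.995 or more, and none were identical; the precision is limited by the number of arrays, which have no depth. Promoters are RefSeq sequences of GRCm38.p6. Figures were drawn with matplotlib 3.10.9.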

Additional observations from a re-analysis of the deposited data

Results flagged for a closer look

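In TB13 the fourth Cbx1 array, at 367.8, lay apart from the other 3, which read 402.8 to 405.5; the gap was 0.929 of the group's range. Of 24 groups of 4 arrays looked at, chance would single out about 1 in 20.

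Rbbp4, which encodes a histone-binding subunit of PRC2, differed between the Bcl11a lines, with TB14 above TB13 by 0.62 on the log2 scale (limma adjusted p = 7.55e-15). Its difference from Trib1 was 0.16 in TB14 and -0.46 in TB13, the latter -0.065 after quantile scaling and 0.060 after calibration on the controls.

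The brightest of 4 probe sets annotated to Npcd, Cbx6 and Nptxr together, which entered no comparison of single genes, had a mean of 227.2 in TB14 and 142.3 in TB13, above 55.8 in Trib1; the other 3 were not higher in TB14 than in Trib1.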

How the results depend on the processing

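The direction of the TB13 values depended on the scaling. Against Trib1, quantile scaling turned Cbx3 to 0.098, Cbx1 to 0.125, Ezh2 to 0.205, Cbx5 to 0.346 and Cbx7 to -0.039. Cyclic loess turned them to 0.218, 0.111, 0.186, 0.323 and -0.113, and median scaling turned Cbx7 to -0.034. Calibration on the controls turned Cbx3 to 0.168, Cbx1 to 0.258, Ezh2 to 0.344 and Cbx5 to 0.497. Between TB14 and TB13, Cbx5 became -0.101 after quantile scaling, -0.12 after loess and -0.202 after calibration, Cbx3 -0.036 after loess, and Ezh2 -0.028 and Cbx6 -0.288 after calibration. The cause was not tested. Cbx6 in TB14 against Trib1 moved to 2.00 with quantile scaling, 2.75 with a pseudocount of 1 and 1.49 with 50. In TB13 against Trib1 it moved to 1.74 (quantile), 1.2 (median), 1.72 (loess), 2.52 (calibration), 1.81 (pseudocount 1) and 0.844 (pseudocount 50). Between TB14 and TB13 it moved to 0.254, 1.10 and 0.482 with quantile, median and loess scaling and to 0.645 with a pseudocount of 50. The stricter filter left 6580 called genes in TB13 against Trib1 and 6584 between TB14 and TB13, since it tested fewer genes (6891). Asking for at least 1.5-fold left 808, 5245 and 5497 genes in TB14 against Trib1, TB13 against Trib1 and TB14 against TB13, and 1 and 21 of the other Polycomb genes in the first and second of these.

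Leaving out each array in turn gave 5007 to 5892, 10253 to 10372 and 10281 to 10392 called genes in the same order, and 13 to 19, 35 to 35 and 35 to 36 other Polycomb genes. Cbx6 then ranged over 2.21 to 2.31, 1.36 to 1.47 and 0.81 to 0.887. The replicate numbers did not pair the arrays (correlations of -0.105 to 0.12 between arrays of the same number and -0.0665 to 0.078 between others), and a replicate block gave 5383, 10375 and 10390 called genes and 16, 35 and 35 other Polycomb genes.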

Other observations

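Probe sets of a gene did not always give like values. For Ezh1 the brightest gave a log2 difference of -0.11 between TB14 and Trib1, whereas a dimmer one rose by 0.60 (limma adjusted p = 2.36e-06). The 6 tested probe sets of Suz12 gave 0.0047 to 0.36 in TB14 and -1.04 to 0.33 in TB13, or -0.70 to 0.84 there after quantile scaling. For Trim28, a corepressor that binds HP1, both tested probe sets rose in TB14, by 0.18 and 0.33, while in TB13 they gave 0.29 and -0.69 as deposited and 0.55 and -0.023 after quantile scaling.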
